A study of Mus musculus with 18 samples.

Results

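The genes described here are the oligoadenylate synthetases of the mouse, 8 genes found by symbol among the 35734 genes of the authors' deposited table for mouse embryonic fibroblasts, connective tissue cells grown from embryos. They are Oas1a, Oas1b, Oas1c, Oas1g, Oas2, Oas3, Oasl1 and Oasl2. The set was drawn up with the fibroblast RNA-seq result in view, so the RNA values below are a description and carry no test. All 8 passed the filter on low values behind the adjusted p-values of that table. The other 4 members of the Oas1 subfamily, Oas1d, Oas1e, Oas1f and Oas1h, did not.

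The fibroblasts were of the R26-M2rtTA line on C57BL/6, which carries the doxycycline-controlled activator rtTA. Both groups were infected with lentiviral vectors from which doxycycline switches on Brn2 (gene Pou3f2) and Myt1l, transcription factors of neurons. The second group also received vectors for Ikzf1 and Ikzf4, zinc finger factors of the Ikaros family. RNA was collected after 48 h of doxycycline from 3 samples a group, and the labels do not say whether these were separate cultures, so the errors of the comparison measure the spread between samples that may be technical. Every fibroblast value therefore compares added Ikzf1 and Ikzf4 with their absence on a background of Brn2 and Myt1l. No matched viral dose is stated here, so the added factors and the load of added vectors cannot be told apart. A second data set came from retina, as 1 library of single-nucleus chromatin accessibility (multiome ATAC) for a control carrying mCherry, from GLAST-CRE ERT2 ; RosaYFP mice on C57BL/6 and labelled as Muller glia, and 1 library for Ikzf1/4. The labels of the second library repeat its title in place of tissue, line and strain. Both are described with tamoxifen at 14 days, while the run names in their file headers carry 48h, so the time these libraries stand for is uncertain. GLAST is the product of Slc1a3, so this Cre acts in Muller glia, the main glial cells of the retina, and in other cells that use that promoter, once tamoxifen is given. How many animals went into each library was not given.

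Oligoadenylate synthetases sense double-stranded RNA, a sign of viral infection, and then join ATP into short 2'-5'-linked oligoadenylates (2-5A). These are second messengers that lead to the cutting of viral and cellular RNA. The genes are classic targets of interferon: the factor ISGF3, which holds Stat2 and Irf9, binds interferon-stimulated response elements (ISRE) in their promoters. Oas1 proteins hold a single synthetase unit, Oas2 and Oas3 hold several units in a row, and the Oasl proteins add ubiquitin-like domains at their end. Fibroblasts express these genes at a basal level and raise them after interferon or viral RNA.

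All 8 genes lie on chromosome 5 in GRCm38.p6, in a pair of clusters. Oasl2 (114896926 to 114912245) and Oasl1 (114923143 to 114937911) are neighbours within 40.99 kb. Oas2 (120730333 to 120749886), Oas3 (120753098 to 120777684) and the Oas1 genes fill a span of 191.3 kb that ends with the non-member Oas1d at 120921648. Of the members among them, Oas1c lies at 120800194 to 120812540, Oas1b at 120812635 to 120824163, Oas1g at 120876142 to 120887613 and Oas1a at 120896256 to 120907544. RefSeq lists Oas1b as a transcribed pseudogene, in keeping with the premature stop codon that common laboratory strains carry in this gene, whose intact form protects mice from flaviviruses.

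RefSeq promoters (GRCm38.p6) were found for 6 of the 8 members, and the 150 bases before the start site of each are shown. Capitals mark matches to the core letters of the ISRE, GAAA, then any 2 bases, then GAAA, read on either strand. The stretches are chr5:120907526-120907675 for Oas1a, chr5:120887614-120887763 for Oas1g, chr5:120812515-120812664 for Oas1c and chr5:120777660-120777809 for Oas3, all on the minus strand, and chr5:114923090-114923239 for Oasl1 and chr5:114896784-114896933 for Oasl2 on the plus strand.
Oas1a: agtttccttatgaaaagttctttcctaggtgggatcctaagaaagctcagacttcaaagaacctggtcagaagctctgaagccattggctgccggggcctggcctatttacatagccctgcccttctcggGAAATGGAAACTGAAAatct
Oas1g: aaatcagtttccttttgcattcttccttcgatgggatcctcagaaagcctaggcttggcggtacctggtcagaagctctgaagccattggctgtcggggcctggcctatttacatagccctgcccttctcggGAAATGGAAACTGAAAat
Oas1c: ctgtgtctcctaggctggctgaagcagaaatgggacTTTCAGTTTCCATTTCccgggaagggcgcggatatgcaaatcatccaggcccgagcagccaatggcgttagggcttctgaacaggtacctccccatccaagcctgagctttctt
Oas3: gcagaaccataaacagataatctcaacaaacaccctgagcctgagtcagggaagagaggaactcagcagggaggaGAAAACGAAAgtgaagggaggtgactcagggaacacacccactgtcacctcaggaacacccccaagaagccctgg
Oasl1: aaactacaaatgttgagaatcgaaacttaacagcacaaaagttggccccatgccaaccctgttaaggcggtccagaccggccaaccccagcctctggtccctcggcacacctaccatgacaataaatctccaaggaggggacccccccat
Oasl2: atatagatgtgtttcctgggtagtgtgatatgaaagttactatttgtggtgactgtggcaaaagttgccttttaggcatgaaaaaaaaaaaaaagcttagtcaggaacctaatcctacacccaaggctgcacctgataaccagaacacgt

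These letters were found in 4 of the 6 member promoters, taken over their full 300 bases (250 before the start and 50 after it), and in 3.44% of all 32851 promoters of that length. Oas1a and Oas1g each held 2 overlapping matches just before the start, from position -20 to -5 in Oas1a and from -18 to -3 in Oas1g, where -1 is the last base before the start. Oas1c held 2 overlapping matches on the opposite strand, from -114 to -99, and Oas3 held 1, from -75 to -66. Read on the other strand, the Oas1c matches have the same letters as those of Oas1a and Oas1g. The Oas1c matches lie between Oas1c and Oas1b, for which no RefSeq promoter was found. The windows of Oasl1 and Oasl2 held none, but both starts are uncertain, so this does not show that these genes lack an ISRE. At Oasl2, open chromatin in the retina (given below) was densest 500 to 600 bases after the start, outside the window. The Oasl1 start used here, 114923240, lies inside the gene as given above, from 114923143. Most of the printed Oasl1 stretch therefore lies within the gene. The promoters of Oas1a and Oas1g were nearly the same sequence, with 85.3% identical columns in a global alignment, while the other 14 pairs lay between 45.9% and 51.6%. TTCNNNGAA, the core of the gamma-interferon element GAS and the same on both strands, was found in 1 of the 6, that of Oas1a, and in 8.3% of all promoters. TGGGAA, a core bound by Ikaros proteins, was found on either strand in 3 of the 6 (Oas1a, Oas1g and Oas3) and in 25.6% of all promoters. A match is a string of letters and does not show that a factor binds there.

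In the fibroblasts, 6 of the 8 synthetase genes were lower with Ikzf1 and Ikzf4, 1 was higher and 1 did not pass, by an adjusted p under 0.05 in the authors' deposited table. Among all 16757 genes with an adjusted p there, 15.4% were lower and 15.3% higher, 30.6% in all. The median log2 fold change of the 8 genes was -0.64 in the authors' deposited table, and that of all genes with an adjusted p was -0.0004. Because the set was chosen from this contrast, these counts describe the set and nothing is read from their distance to the background. Values per library are not given for genes, since the files of single libraries list Ensembl transcripts and the sources used here do not pair those with genes. Each gene is therefore given by the authors' mean normalised count over the compared libraries, and by the log2 fold change with its standard error (SE). The mean is not scaled for gene length and is not compared between genes. The table's fold changes may be shrunk toward 0, since its median SE was 0.05 for genes with a mean up to 2 and 0.19 for those from 50 to 200 in the authors' deposited table.

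**Figure D1:**
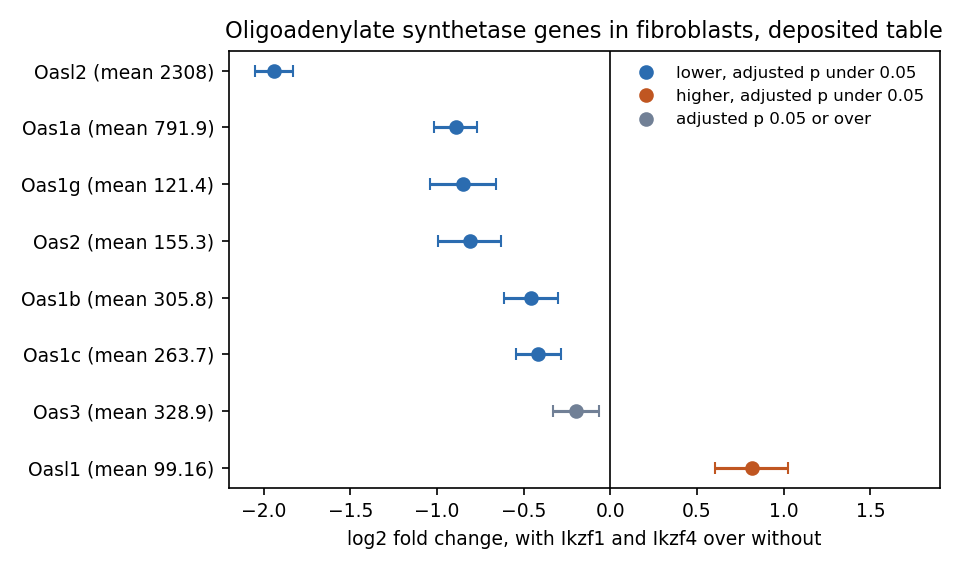
Log2 fold change of each synthetase gene in fibroblasts, with Ikzf1 and Ikzf4 over without, from the authors' deposited table (points; bars are 1 SE), with the mean normalised count in brackets. Oasl2 stands apart at -1.94, 5 further genes lie between -0.89 and -0.42, Oas3 is at -0.20, and Oasl1 is on the other side of 0 at 0.81.

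Among the Oas1 genes, which encode the small synthetases, all 4 members were lower. Oas1a, an active 2-5A synthetase, had a mean of 791.9 and a log2 fold change of -0.89 (SE 0.12) in the authors' deposited table, 1.86-fold lower. Its near copy Oas1g, also an active enzyme, had a mean of 121.4 and a change of -0.85 (SE 0.19), 1.80-fold lower in the authors' deposited table. The 2 values differ by less than either SE. Reads from stretches that the copies share can be exchanged between them by the quantification, so the split between Oas1a and Oas1g is uncertain.

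Oas1b and Oas1c had smaller values. Oas1b, the gene whose intact form gives flavivirus resistance, had a mean of 305.8 and a change of -0.46 (SE 0.16) in the authors' deposited table, 1.37-fold lower. Oas1c, its immediate neighbour, had a mean of 263.7 and a change of -0.42 (SE 0.13), 1.33-fold lower in the authors' deposited table. Oas1c and Oas1b lie 95 bases apart, with the start of Oas1c on the side facing Oas1b. Their changes again differ by less than either SE. The 4 remaining Oas1 genes were barely detected: Oas1d, known from ovary and early embryo, had a mean of 1.13 in the authors' deposited table, Oas1f had 0.37, and Oas1e and Oas1h were listed at 0.

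The larger synthetases are Oas2 and Oas3. Oas2 had a mean of 155.3 and a change of -0.81 (SE 0.18) in the authors' deposited table, 1.76-fold lower, which is close to Oas1a and Oas1g. Oas3, the largest synthetase, had a mean of 328.9 and a change of -0.20 (SE 0.13) in the authors' deposited table, which did not pass the threshold (adjusted p 0.276 by the authors' DESeq2). Oas2 and Oas3 stand next to each other on the chromosome, and no direct test of the difference between them was made.

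The Oasl pair pointed in opposite directions. Oasl2, which has kept synthetase activity in the mouse beside its ubiquitin-like domains, had a mean of 2308 and a change of -1.94 (SE 0.11) in the authors' deposited table, 3.83-fold lower. It ranked 7 from the bottom of all 16757 genes by log2 fold change and 16 from the bottom by the Wald score in the authors' deposited table. Of the 8 members it alone was called with a log2 fold change under -1, as were 0.913% of all genes with an adjusted p. None was called with a log2 fold change over 1, against 1.24% of those genes. Oasl1, which lacks synthetase activity and is known to hold back translation of Irf7 mRNA, had a mean of 99.16 and a change of 0.81 (SE 0.21) in the authors' deposited table, 1.76-fold higher. The 2 genes are adjacent, and the difference between their changes is many times either SE, though it is part of what chose the set and was not tested.

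Of the called genes whose mean was 100 or more, the 5 with a log2 fold change nearest to that of Oasl2 were Tle6 (-2.02), Ndst4 (-1.86), Cntn6 (-2.07), Tgtp1 (-1.80) and Dcn (-1.77) in the authors' deposited table. Tgtp1 encodes an interferon-inducible GTPase and Dcn the matrix proteoglycan decorin, while Tle6 is a Groucho-type co-repressor, Ndst4 a heparan sulfate enzyme and Cntn6 a neuronal adhesion protein. This likeness rests on 1 comparison of 2 groups and not on a pattern over samples. Of 4569 such genes, 6 had a lower value than Oasl2 in the authors' deposited table.

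Partners of the synthetases in the 2-5A pathway come next. Abce1, Pde12 and Mavs were not called in the authors' deposited table, with changes of -0.01 (SE 0.04) for Abce1, an ATPase that also recycles ribosomes, 0.02 (SE 0.08) for Pde12, which degrades 2-5A, and -0.16 (SE 0.07) for Mavs, the adaptor of the RNA helicases. For Mavs the authors' adjusted p was 0.0627 in the authors' deposited table. A miss of the threshold does not show that these genes were the same in both groups.

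Other sensors of foreign nucleic acid were lower in part. Of 9 genes with a value, 6 were lower and 0 higher in the authors' deposited table, with a median log2 fold change of -0.38. Of all genes with an adjusted p, 15.4% were lower and 15.3% higher, and this list was chosen with earlier results known. The toll-like receptor Tlr3 had -0.82 (SE 0.12), Zbp1 -0.80 (SE 0.20) and the helicase Ifih1 (MDA5) -0.75 (SE 0.09) in the authors' deposited table. Smaller falls were those of Sting1 (-0.42, SE 0.13), Ddx58 (RIG-I; -0.38, SE 0.06) and Adar (-0.13, SE 0.05) in the authors' deposited table. The kinase Eif2ak2 (PKR), which also binds double-stranded RNA, did not pass at -0.02 (SE 0.06) in the authors' deposited table, nor did Dhx58 (-0.15, SE 0.12) or Cgas (-0.14, SE 0.13).

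Of 17 genes of interferon signalling, 3 were lower, 1 was higher and 13 did not pass in the authors' deposited table, with a median of -0.08. The share lower is near the 15.4% of all genes with an adjusted p, of which 15.3% were higher. Nothing about the pathway is read from these counts. The lower genes were Stat2 (-0.85, SE 0.09), the subunit particular to ISGF3, Usp18 (-0.92, SE 0.10), a feedback inhibitor that is itself induced by interferon, and the receptor chain Ifnar1 (-0.17, SE 0.05) in the authors' deposited table. The higher gene was Ifngr1 (0.18, SE 0.06) in the authors' deposited table. Irf9, the DNA-binding subunit of ISGF3, did not pass at 0.07 (SE 0.07) in the authors' deposited table. Irf7, whose mRNA is the known target of Oasl1, was at 0.09 (SE 0.18) in the authors' deposited table. Ifnb1, the gene of interferon beta, had a mean of 6.796 and a change of -0.07 (SE 0.16) in the authors' deposited table.

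Of 20 other interferon-induced genes, 13 were lower, 1 was higher and 6 did not pass in the authors' deposited table, with a median of -0.58. The shares over all genes with an adjusted p were 15.4% lower and 15.3% higher. The ubiquitin-like modifier Isg15 (-1.27, SE 0.12) and Rtp4 (-1.08, SE 0.11) were the lowest in the authors' deposited table, short of the change of Oasl2. The antiviral GTPases Mx2 (-0.93, SE 0.15) and Mx1 (-0.84, SE 0.18) lay near Oas1a in the authors' deposited table. Dtx3l was higher (0.25, SE 0.07), and Rsad2 (viperin; -0.14, SE 0.14), Ifi35 (-0.003, SE 0.09) and Parp9 (0.002, SE 0.09) did not pass in the authors' deposited table. So this list, like the synthetases, held genes called lower, genes that did not pass and 1 gene called higher.

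**Figure D2:**
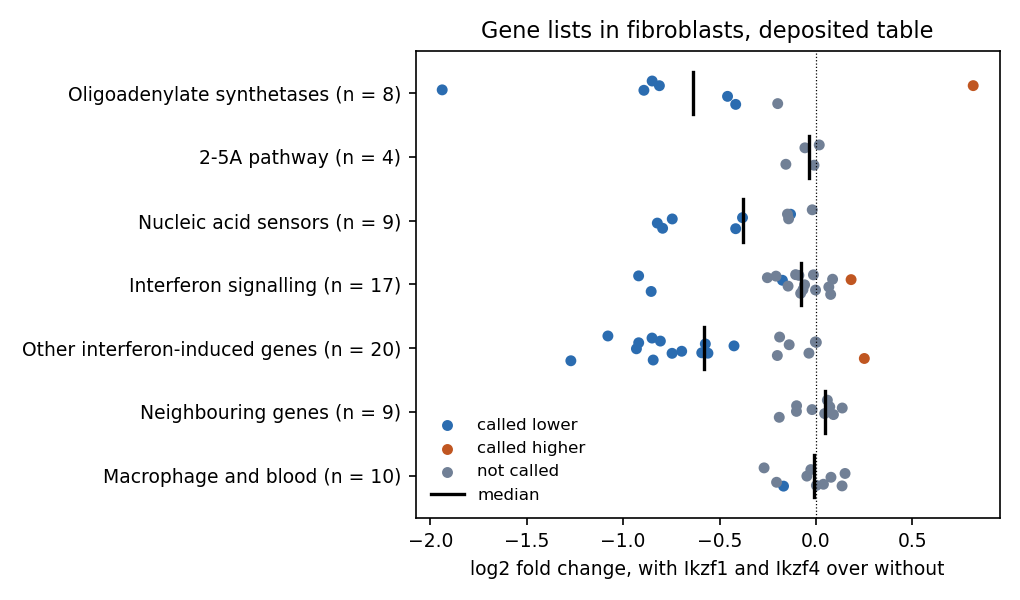
Log2 fold changes in fibroblasts of the synthetases and of 6 further lists, with Ikzf1 and Ikzf4 over without, from the authors' deposited table (points are genes with an adjusted p, spread vertically for sight; black bars are list medians). The synthetases, nucleic acid sensors and other interferon-induced genes have medians of -0.64, -0.38 and -0.58, while the 2-5A pathway, neighbouring genes and macrophage markers lie around 0.

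Neighbours of the synthetases were looked up next, at 4.243 to 282.9 kb from their cluster. At such distances they do not show whether a change is confined to the synthetase loci. The 3 nearest protein-coding genes on each side of the Oasl cluster and of the Oas cluster gave 9 genes with an adjusted p. Of these 9, 0 were called in either direction in the authors' deposited table, against 30.6% of all genes. Among the 9, 4930519G04Rik, Rph3a and Rasal1 had low means of 4.50, 5.07 and 16.49, where a call is hard to reach. Sppl3, beyond the Oasl genes, was at 0.09 (SE 0.06) and Dtx1, beside Oas2, at -0.19 (SE 0.15) in the authors' deposited table. Promoters with the ISRE letters were looked at over all genes as well. Of 475 genes with such a promoter and an adjusted p, 22.3% were lower and 14.3% higher, against 15.8% and 15.7% of the 11875 genes without it, by the calls of the authors' deposited table. The members and other interferon targets are among the 475 genes, so the share is not independent of them.

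Other cell types in the cultures were followed through their markers, since macrophages express interferon-induced genes strongly. Macrophage and blood genes were well detected: all 10 had means between 326.3 (Cx3cr1) and 13089 (Lyz2) in the authors' deposited table, so the cultures held macrophage RNA. Of these 10, 1 was lower, C1qa at -0.17 (SE 0.07), and 0 were higher, with a median of -0.01 in the authors' deposited table. Ptprc was at -0.20 (SE 0.10), Csf1r at -0.05 (SE 0.08) and Lyz2 at 0.04 (SE 0.09) in the authors' deposited table. Of 10 fibroblast markers, 7 were lower, with a median of -0.38 and Dcn the lowest at -1.77 (SE 0.08) in the authors' deposited table. Endothelial markers had means of 5.82 to 132.3 and 0 of 5 were called in the authors' deposited table. Of the 5 epithelial markers, with means of 1.34 to 50.3, Epcam was called, higher at 0.64 (SE 0.22) in the authors' deposited table. Beside all these marker counts, 15.4% of all genes with an adjusted p were lower and 15.3% higher. In bulk RNA, fewer cells of a type and less RNA per cell cannot be told apart. The part of the fibroblast markers' fall in the values of the synthetases was not tested.

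As the check of the labels, Ikzf4 was at 8.54 (SE 0.15) and Ikzf1 at 7.76 (SE 0.17), while Pou3f2, switched on in both groups, was at -0.05 (SE 0.08) in the authors' deposited table. Myt1l, also in both, was called higher at 0.50 (SE 0.17) in the authors' deposited table (adjusted p 0.0157 by the authors' DESeq2). The background of Brn2 and Myt1l was thus not equal in both groups by this measure. The part of Myt1l in the other values was not tested. The 6 RNA libraries held 34966344 to 44270426 estimated reads, and both groups overlapped in depth. The fibroblast ATAC peak lists were not set against these genes, because peak positions and the gene positions used here are not known to be on the same build.

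The retinal libraries gave a measurement that did not enter the choice of genes. Chromatin at the 8 genes was counted as unique fragments in nuclei, over the gene and 2 kb on both sides, and scaled to the total in nuclei, as counts-per-million (CPM). The control library held 1864 nuclei with a median of 6194 fragments and the Ikzf1/4 library 680 with a median of 10854, and 3 barcodes were shared by both sets of nuclei. With 1 library a group there is no replicate check and no test, and the intervals (95%, exact) cover counting error only. Over all 8 windows together, each fragment being counted once, the control held 898 fragments and the Ikzf1/4 library 477, which is 66.9 against 56.0 CPM and a ratio of 0.84 (0.75 to 0.94). The median ratio of 18763 gene windows with at least 20 fragments was 1.06, and the middle 90% of them lay between 0.58 and 1.42. The median share of fragments within 500 bp of a RefSeq start was 26.9% in control nuclei and 31.7% in Ikzf1/4 nuclei. Read pairs per unique fragment were 1.96 in the control library and 4.59 in the Ikzf1/4 library. The ratios were not adjusted for either difference.

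**Figure D3:**
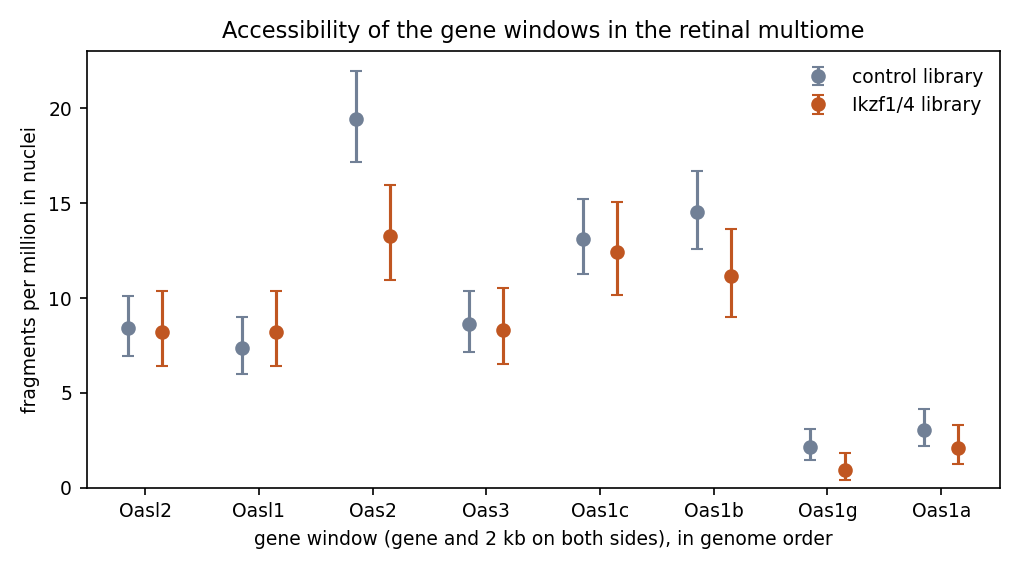
Fragments in nuclei (CPM) over each synthetase gene and 2 kb on both sides, in genome order, for the control and the Ikzf1/4 multiome library (points; bars are exact 95% Poisson intervals, counting error only). The bars of the Oas2 window do not overlap (19.5 against 13.3), while those of the other 7 windows do.

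The windows of the Oasl pair had intervals that include 1. Oasl2 went from 8.42 CPM in the control to 8.21 with Ikzf1/4 (ratio 0.98, interval 0.71 to 1.33), and Oasl1 from 7.38 to 8.21 (ratio 1.11, interval 0.81 to 1.53). Intervals of that width do not show that the windows were equal. An alternative chosen after the data were seen kept all barcodes of at least 3000 fragments, with no other limit on barcodes. It gave Oasl1 at 1.27 (1.01 to 1.59) and Oasl2 at 0.88 (0.68 to 1.12). The largest barcode kept there held 1694373 of 17993088 fragments for the control and 2063306 of 14911840 for Ikzf1/4. Medians per nucleus were 6194 and 10854, and the part of these largest barcodes in the ratios was not tested. Within 1 kb of its ends, Oasl1 was at 0.79 (0.42 to 1.42) in nuclei and 0.80 (0.61 to 1.05) over all barcodes. With barcodes of at least 3000 fragments its ends were at 0.85 (0.54 to 1.33). Oas2 was at 13.3 against 19.5 CPM, a ratio of 0.68 (0.54 to 0.85), and within 1 kb of its ends at 0.77 (0.41 to 1.38). Oas3 was at 8.33 against 8.65 CPM (ratio 0.96, 0.71 to 1.31). Over all barcodes Oas3 was at 0.68 (0.59 to 0.78), and within 1 kb of its ends in nuclei at 0.63 (0.24 to 1.49).

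In the Oas1 cluster, Oas1b was at 14.5 CPM in the control against 11.2 with Ikzf1/4 (ratio 0.77, interval 0.59 to 0.99), and Oas1c at 13.1 against 12.4 (ratio 0.95, interval 0.74 to 1.21). These 2 windows overlap and share fragments, and so do the windows around their facing ends. The gene windows of Oas2 and Oas3 overlap as well, so the genes counted below are not independent. Oas1a and Oas1g held few fragments, 41 and 29 in the control and 18 and 8 in the Ikzf1/4 library. Their ratios were 0.69 (0.37 to 1.23) and 0.43 (0.17 to 0.97). Fragments from sequence that these near copies share may be lost in mapping, so their low counts are uncertain. In all, the interval lay below 1 for 3 of the 8 windows and above 1 for 0, against 14.7% and 32.1% of all gene windows with at least 20 fragments. These counts depend on which fragments are used. Over all barcodes 6 of the 8 lay below 1 and 0 above, with 14.2% and 37.4% of all windows. With barcodes of at least 3000 fragments 3 lay below (Oas1b, Oas1c and Oas2) and 1 above (Oasl1), with 20.9% and 15.3% of all windows. Within 1 kb of the gene ends 0 of the 8 lay below or above in nuclei, 3 lay below over all barcodes (Oas1g, Oas2 and Oas3), and 2 lay below with barcodes of at least 3000 fragments (Oas1b and Oas1c). The shares below 1 at the ends of all genes over 5 kb, again with at least 20 fragments, were 4.2%, 4.56% and 19.7% for these 3 sets of barcodes. The shares above 1 were 35.3%, 39.8% and 7.86%, against 0 of the 8 members in each set. Of all gene windows with at least 20 fragments, 8.84% were over 1.5-fold lower and 2.96% over 1.5-fold higher. Oas1g alone of the members was over 1.5-fold lower, as 0.68 for Oas2 and 0.69 for Oas1a are just short of it, and 0 of the members were over 1.5-fold higher. That call for Oas1g rests on 8 fragments in the Ikzf1/4 library and is lost in most alternatives: its ratio was 0.73 (0.58 to 0.92) over all barcodes, 0.88 (0.56 to 1.37) with barcodes of at least 3000 fragments and 1.31 (0.32 to 5.16) at its ends. At its ends over all barcodes it was 0.58 (0.35 to 0.92), and with barcodes of at least 3000 fragments 1.88 (0.76 to 4.92). With barcodes of at least 3000 fragments, Oas2 at 0.57 (0.47 to 0.69) and Oas1b at 0.65 (0.52 to 0.82) were over 1.5-fold lower, as were 4.83% of all windows.

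Of the 12 neighbouring genes, the interval lay above 1 for 8 and below 1 for 1 in nuclei, but above 1 for 3 and below 1 for 4 with barcodes of at least 3000 fragments, and no test of members against neighbours was made. In nuclei the whole of chromosome 5 was at a ratio of 1.02. Of the 4 further Oas1 genes, the interval of Oas1h lay below 1, at a ratio of 0.51 (0.30 to 0.83), and the intervals of all 4 did so over all barcodes and those of 2 (Oas1e and Oas1h) with barcodes of at least 3000 fragments. Windows of cell type markers also differed between the libraries, and nuclei were not sorted into types, so cell numbers and accessibility per cell cannot be told apart. The windows of the rod genes Nrl and Nr2e3 were at ratios of 2.96 (2.48 to 3.56) and 1.83 (1.59 to 2.09), and those of the Muller glia genes Slc1a3 and Glul at 0.69 (0.62 to 0.77) and 0.81 (0.74 to 0.88). The microglial genes P2ry12, Csf1r and Cx3cr1 were at 0.54 (0.43 to 0.67), 0.83 (0.68 to 1.02) and 0.80 (0.59 to 1.06), and over all barcodes at 0.88 (0.80 to 0.98), 1.04 (0.94 to 1.15) and 0.87 (0.76 to 1.01). Over all barcodes Nrl was at 1.97 (1.74 to 2.23). The part of these differences in the ratios of the synthetase windows was not tested.

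**Figure D4:**
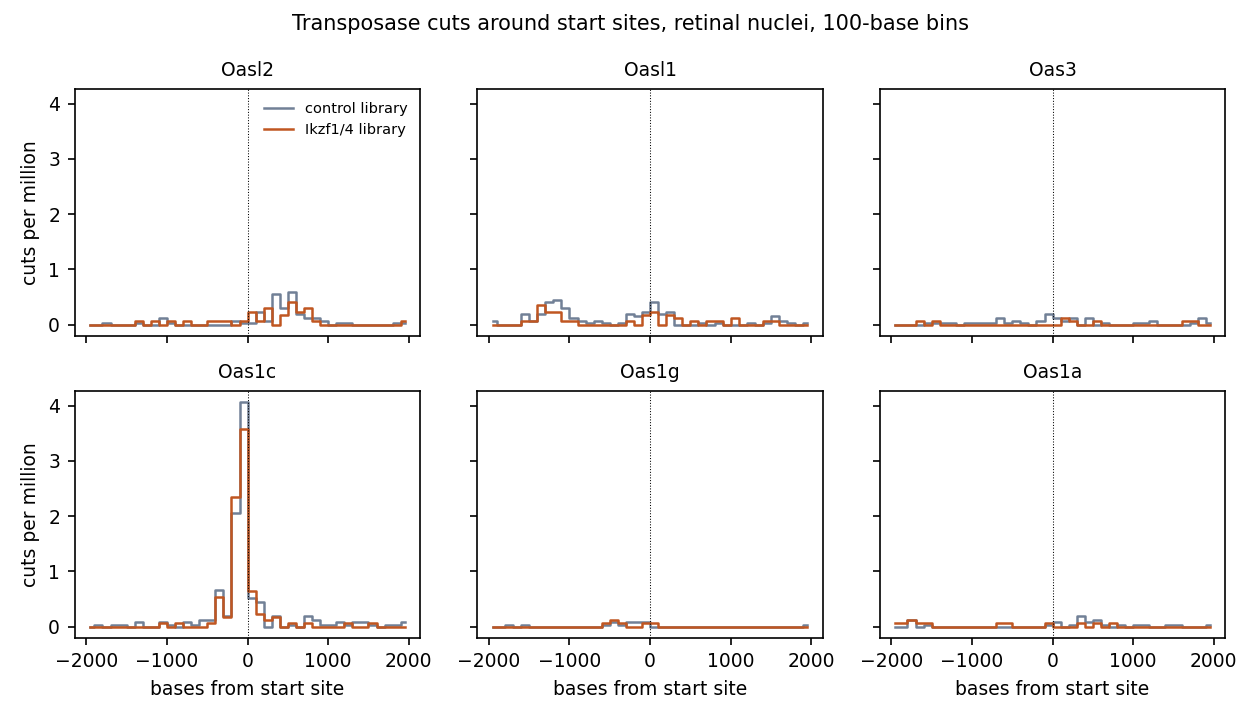
Transposase cuts in nuclei, scaled as CPM, in 100-base bins from 2000 bases before to 2000 after the RefSeq start of 6 synthetase genes, oriented along each gene, for both multiome libraries (lines; no replicates). Oas1c has a sharp summit just before its start in both libraries (4.06 and 3.58 CPM of cuts), Oasl2 a low summit 500 to 600 bases after it, and no bin of Oas3, Oas1g or Oas1a is above 0.19, with 43 cuts in all at Oas3 in the control against 8 in the Ikzf1/4 library.

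Around the start sites, open chromatin in the retina was plain at 1 of the 6 promoters. Within 250 bases of its start, Oas1c was at 7.68 CPM in the control against 7.51 with Ikzf1/4 (103 and 64 fragments; ratio 0.98, 0.70 to 1.35), with most cuts in the 200 bases before the start (164 of 258 cuts within 2000 bases in the control and 101 of 140 in the Ikzf1/4 library). This stretch contains the overlapping ISRE letters shown above for Oas1c and reaches into Oas1b. The letters lie in the 95 bases between Oas1c and Oas1b, so they and these cuts cannot be assigned to Oas1c alone. The median ratio of promoters with at least 20 fragments was 1.16 in nuclei, above the 0.98 of Oas1c. Oasl1 had 19 and 6 fragments within 250 bases of its start, Oasl2 8 and 8, Oas3 7 and 1, Oas1g 3 and 1, and Oas1a 2 and 1. At Oasl2 the cuts lay after the start used by RefSeq: 44 of 74 in the control and 14 of 39 in the Ikzf1/4 library fell 300 to 700 bases downstream. The Oasl2 stretch printed above, without ISRE letters, therefore lies upstream of where its retinal cuts were densest. The fullest bins of Oasl1 lay outside its printed stretch as well. They ran from -1200 to -1100 in the control (12 cuts) and from -1400 to -1300 in the Ikzf1/4 library (6 cuts). Within 250 bases of these 5 starts, a difference between the libraries was not detectable with so few fragments. Over the wider 2000 bases on both sides, Oas3 had 43 cuts in the control against 8 with Ikzf1/4, and Oasl1 had 104 against 38, from libraries of 13416522 and 8522055 fragments in nuclei. The ratio of the whole Oas3 window was 0.96 (0.71 to 1.31). At the other starts the cuts were 258 against 140 (Oas1c), 74 against 39 (Oasl2), 25 against 12 (Oas1a) and 13 against 6 (Oas1g). Each fragment gives 2 cuts, so these are not independent counts, and no test was made.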

How the data were processed

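Fibroblast RNA-seq was quantified by the authors with salmon and compared with DESeq2, per the labels. The deposited files hold estimated counts per Ensembl transcript and, for each gene, the mean normalised signal over libraries, the log2 fold change with its error, a score (Wald) and p-values before and after adjustment. For versions and annotation, the sources used here give nothing. Transcripts could not be paired with genes, so the edgeR fit planned per library was not run, since none of its rows could be assigned to a synthetase, and gene values were copied from the authors' deposited table. The submitters' processing notes name mm9 and mm10 without saying which applies to the peak lists, which were not used. Multiome fragments were made by cellranger-arc 2.0.1 on mm10, per the file headers, and the deposited counts of read pairs per fragment were not used beyond their total. Nuclei were barcodes with at least 3000 fragments, at least 10% of fragments within 500 bp of a RefSeq start (a limit set after the data were seen), and fewer fragments than the 99th percentile, which was the only step against doublets, since no doublet caller was run. Left out were 25.4% (control) and 42.9% (Ikzf1/4) of the fragments in barcodes over 3000. Ratios have exact binomial intervals (scipy 1.17.1). Window counts and intervals were tested on simulated fragments. Promoters were aligned with Biopython 1.88. The genes named are all 8 members, listed genes a sentence needs, and the 5 nearest Oasl2 in log2 fold change. Members and lists were chosen with earlier results of these data known. Values of some listed genes are not reported here.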

Additional observations from a re-analysis of the deposited data

How the results depend on the processing

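Requiring an absolute log2 fold change over 1 as well left 1 gene lower, Oasl2, and 0 higher in the authors' deposited table, by its DESeq2 adjusted p, in place of 6 and 1. At an adjusted p under 0.01 there were 5 lower (Oas1b was lost) and 1 higher. The ratio of all 8 retinal windows together, 0.84, was 0.79 over all barcodes and 0.83 within 1 kb of both gene ends (interval 0.68 to 1.02). Of 3 alternatives chosen after the data were seen, barcodes of at least 3000 fragments, with neither the limit on the share near starts nor that on the largest barcodes, gave 0.80, and the gene ends gave 0.72 over all barcodes, outside the first interval, and 0.78 with barcodes of at least 3000 fragments. For single genes, 30 of 40 alternative ratios stayed within the interval of the first value, which is wide for Oas1g. Oas1g turned from 0.43 to 1.31 at its ends, on 6 and 5 fragments, and to 1.88 there with barcodes of at least 3000 fragments. The 8 other ratios outside their interval were those of Oas3 over all barcodes (0.68) and at its ends (0.60 to 0.67), of Oasl1 at its ends (0.79 and 0.80), and of Oas1c with barcodes of at least 3000 fragments (0.72, and 0.70 at its ends). The cause was not tested. No paired analysis was possible because the synthetases have no values per library in the tables used and the retinal groups have 1 library each. For the same reason leaving out single replicates was not run, nor were the alternatives to the edgeR fit and to the peak lists. Promoter counts in the retina were low, with fewer than 20 fragments a library at 5 of 6 starts, against 103 and 64 at Oas1c. Why they were low was not tested.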
